A study of Mus musculus with 30 samples.

Results

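The genes described here are a set that Wnt signalling keeps switched on in the hepatocytes around the central vein of the liver lobule. The set was fixed by name as 10 genes, Glul, Axin2, Lgr5, Oat, Slc1a2, Rhbg, Tbx3, Slc13a3, Lect2 and Nkd1. A gene counted as measured when a probe set of the array named it alone, and the brightest of its probe sets, by the mean of the 30 arrays, was read for it. By that rule 9 of the 10 were measured, among 17097 genes in all. Glul, the glutamine synthetase gene, has no such probe set and was not analysed here.

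RNA was taken from fresh-frozen liver outside tumours and measured on Affymetrix HT MG-430 PM arrays, with 1 array for each of 30 mice. The 5 chow mice had healthy livers. All others were fed CD-HFD, which is high in fat, lacks choline and leads to fatty liver inflammation and hepatocellular carcinoma (HCC). On that diet, 9 mice were given vehicle only, of which 5 are labelled without HCC and 4 with HCC and fibrosis. Those 4 are called mice with HCC below, and HCC and fibrosis cannot be told apart in them. As prophylaxis, a further 10 mice on the diet were given sulindac, a cyclooxygenase inhibitor, and 6 were given aspirin together with clopidogrel, which blocks the platelet ADP receptor. The treatment field of the chow mice also reads vehicle, so that chow and CD-HFD vehicle mice differ in diet by their labels. Strain, sex, age, dose, treatment time and batch are not given in the labels used here, and mouse names come from the titles. Hlth marks chow mice, Diet_Veh_low vehicle mice free of HCC, Diet_Veh_high those with it, Diet_Sulin mice on sulindac and Diet_AspClo mice on aspirin plus clopidogrel, each before the animal number. All mice of both drug groups have lower animal numbers than every chow and vehicle mouse. Whether they were kept or processed as a separate series was not tested. In comparisons of a drug group with vehicle or chow, the drug cannot be told apart from this split. The words fell and rose below describe differences between groups. Each array held whole liver tissue, so fewer cells of a type and less RNA per cell cannot be told apart.

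Hepatocytes divide their work along the axis from the portal vein to the central vein. Endothelial cells of the central vein secrete Wnt ligands and R-spondin 3, which stabilise beta-catenin in the nearest hepatocytes and hold them in the pericentral state. Those cells take up ammonium and glutamate, make glutamine and carry many drug-metabolising enzymes, while periportal hepatocytes make urea and glucose. Axin2, Nkd1 and Lgr5 belong to the Wnt pathway itself, Tbx3 is a transcription factor, Rhbg, Slc1a2 and Oat handle ammonium, glutamate and ornithine, Slc13a3 carries dicarboxylates, and Lect2 is a secreted protein.

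Beta-catenin acts on genes through TCF and LEF factors, so the promoters of the measured genes were searched on both strands for 4 short TCF/LEF words: the word CTTTGAA, the word CTTTGAT, the word CTTTGTA and the word CTTTGTT. The window ran from 250 bases before to 50 bases after the gene start in RefSeq (GRCm38.p6). Promoters of 6 of the 9 measured genes were in the table used. A word was found in 2 of these 6, those of Lect2 and Slc1a2, against 16.9% of all 32851 promoters of that length. Their 250 bases before the start are shown because these were the members with a match. In both, the match is CTTTGAT on the other strand and therefore reads ATCAAAG in the printed strand, where it stands in capitals. It begins at position -32 in Lect2 and at position -207 in Slc1a2, counted from the gene start. Lect2 lies on the minus strand of chr13:56548539-56548788 and Slc1a2 on the plus strand of chr2:102706188-102706437.
Lect2: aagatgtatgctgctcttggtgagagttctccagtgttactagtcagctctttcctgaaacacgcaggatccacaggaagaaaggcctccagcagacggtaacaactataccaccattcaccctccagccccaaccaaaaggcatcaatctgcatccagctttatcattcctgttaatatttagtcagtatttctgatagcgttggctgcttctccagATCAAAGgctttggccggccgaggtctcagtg
Slc1a2: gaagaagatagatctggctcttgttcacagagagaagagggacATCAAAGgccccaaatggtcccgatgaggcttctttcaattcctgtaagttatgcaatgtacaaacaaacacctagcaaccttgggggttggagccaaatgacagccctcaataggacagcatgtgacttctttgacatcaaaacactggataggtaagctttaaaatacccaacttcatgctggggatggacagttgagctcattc
A match describes the letters and shows no binding. No word was found in the windows of Oat, Nkd1, Slc13a3 and Axin2.

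All values below are log2 of the deposited intensity. Differences were tested with limma, fitted to all 17097 genes and 30 arrays, with Benjamini-Hochberg adjustment over all genes and a threshold of 0.05. A difference of 1 on this scale is a doubling of intensity. The median gene had a mean of 4.90, and Axin2 and Nkd1 had means of 4.82 and 4.64, below that median, so the range left for a fall in these genes was narrow. The 7 measured hepatocyte markers of 9 listed were all above the median gene mean, with summed intensities between 51497 and 57174 over all groups. Among these 7, Fga was higher with sulindac than in chow mice, by 0.17 (limma, adjusted p 0.0359), where 2.98% of all genes passed. With aspirin and clopidogrel it was higher than in chow mice by 0.23 (limma, adjusted p 0.0108), where 2.77% passed. Over the brighter genes, 4 mice lay nearer the mean of the opposite group than that of their own, chow mice Hlth_1798 and Hlth_1807 against CD-HFD vehicle, and vehicle mice Diet_Veh_low_794 and Diet_Veh_low_1819 without HCC against chow. They were found from measured values with the group labels in view, so leaving them out narrows the groups by construction. Where leaving them out ends or adds a call of a member, or moves a described difference of a member by over 1.5 times, the value without them is given too.

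None of the 9 measured genes passed the threshold in any of 7 pairwise comparisons of groups, and 1 of them, Rhbg, passed the moderated F test for any difference among the 5 groups. The share of all genes called was 0.0117% for CD-HFD vehicle against chow, 0.0877% for vehicle with HCC against vehicle without HCC, 0.199% for sulindac against vehicle and 1.96% for aspirin with clopidogrel against vehicle. It was 0.877% for aspirin with clopidogrel against sulindac, 2.98% for sulindac against chow, 2.77% for aspirin with clopidogrel against chow and 3.97% in the F test. A count of 0 among 9 genes was therefore near the background in each pairwise comparison. At an unadjusted p under 0.05, Rhbg counted in 3 of the comparisons and Oat in 2, and no other member did in any of them. No member did so for diet, where 6.73% of all genes did. The comparisons against vehicle share the same 9 vehicle mice and those against chow the same 5 chow mice.

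**Figure D1:**
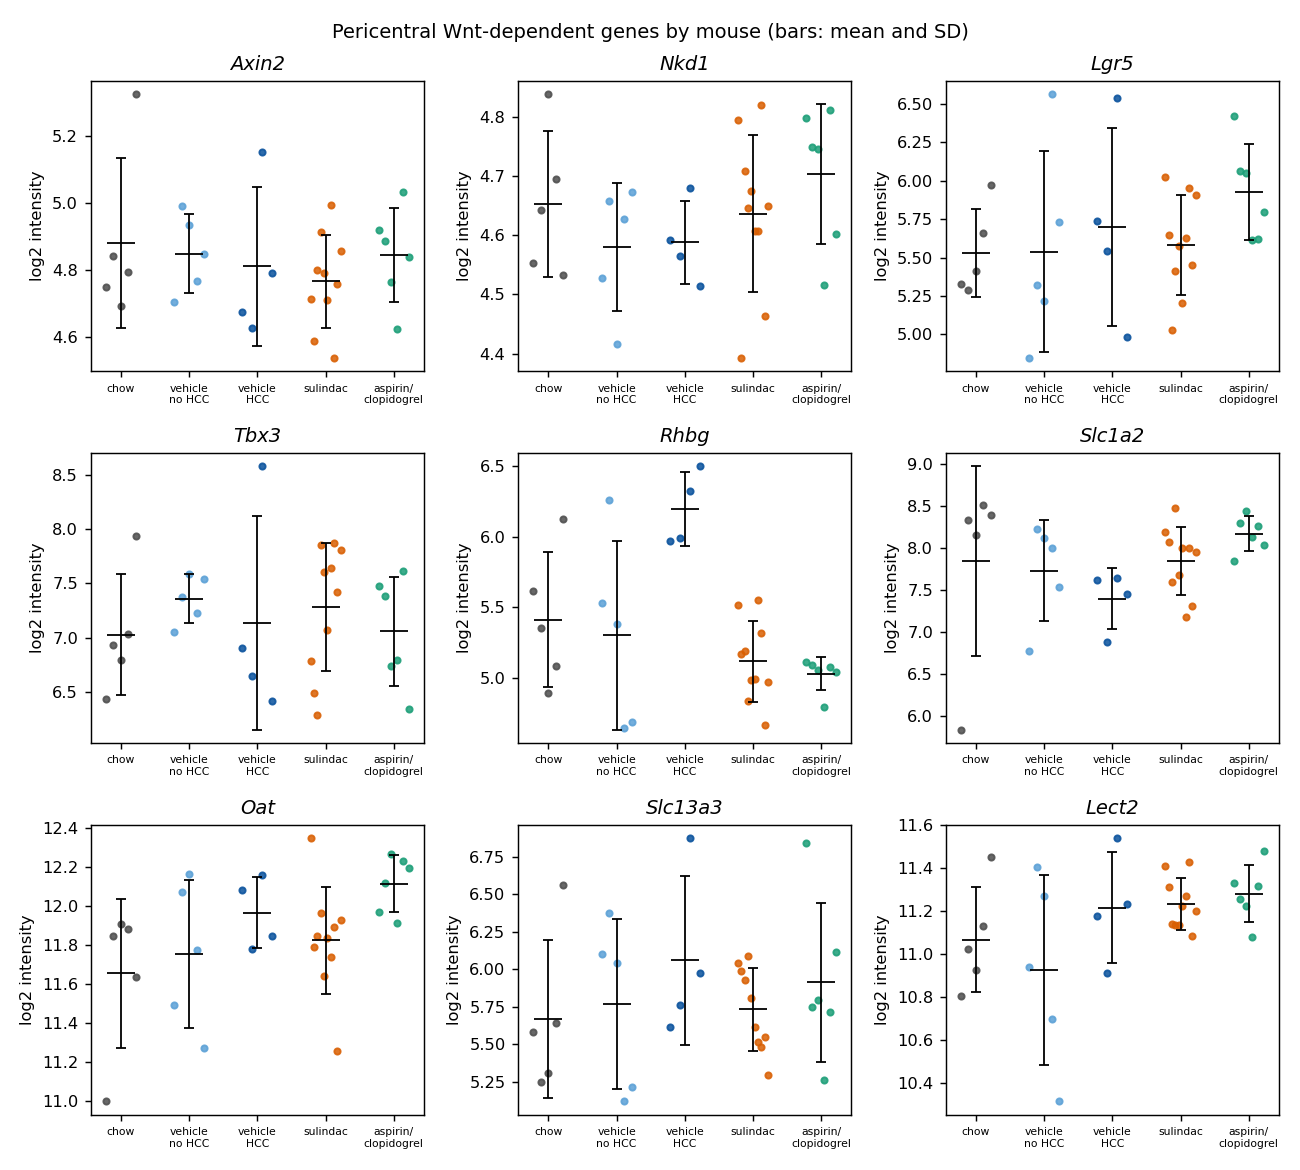
Log2 intensity of the 9 measured genes, 1 panel per gene and 1 point per mouse, by label group, with bars for the mean and SD; each panel has its own vertical scale. The 4 Rhbg points of vehicle mice with HCC, 5.97 to 6.50, lie above all points of both drug groups, while the groups overlap in most other panels.

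Rhbg, the ammonium transporter of pericentral hepatocytes, was the member that differed most clearly between groups. It was read by a single probe set with a mean of 5.33, little above the median gene mean of 4.90. The range left for a fall was thus limited in this gene too, and low values may be compressed. Rhbg was at 5.97, 5.99, 6.33 and 6.50 in the vehicle mice with HCC. In vehicle mice without HCC it was at 4.65, 4.69, 5.38, 5.53 and 6.26, and in chow mice at 4.89, 5.09, 5.35, 5.61 and 6.12. All mice with HCC were thus high, while both other untreated groups spread over more than 1 log2 unit. The 10 sulindac mice ranged from 4.66 to 5.55 with a median of 5.08, and the 6 mice on aspirin with clopidogrel from 4.80 to 5.12 with a median of 5.07. Neither drug group overlapped the vehicle mice with HCC, and both overlapped the vehicle mice without HCC and the chow mice.

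The group means of Rhbg stood in the order vehicle with HCC at 6.20 ± 0.26 (SD, n = 4), chow at 5.41 ± 0.48 (SD, n = 5), vehicle without HCC at 5.30 ± 0.67 (SD, n = 5), sulindac at 5.12 ± 0.29 (SD, n = 10), and aspirin with clopidogrel at 5.03 ± 0.12 (SD, n = 6). The last 4 lay within 1 SD of their neighbours in that order, and the gap below the mice with HCC was larger than the SD of either neighbour. The F test gave an unadjusted p of 0.000372 and an adjusted p of 0.0192. That call rested on the mice with HCC, because the adjusted p was 0.0578 without mouse Diet_Veh_high_1831 and 0.0780 without mouse Diet_Veh_high_2088.

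Between vehicle mice with and without HCC, Rhbg differed by 0.90 (SE 0.248), a ratio of 1.86, with an adjusted p of 0.202 in limma, where 8.87% of all genes had an unadjusted p under 0.05. With each mouse left out in turn the difference ran from 0.73 to 1.14. It passed the threshold in 1 case, without vehicle mouse Diet_Veh_low_1825, the highest of the mice without HCC (adjusted p 0.0371), and the adjusted p was highest, 0.628, without mouse Diet_Veh_high_2088. Against all 9 vehicle mice, the difference was -0.58 (SE 0.17) in the sulindac mice, a ratio of 0.669, with an adjusted p of 0.156. In the mice on aspirin with clopidogrel it was -0.67 (SE 0.195), a ratio of 0.629, with an adjusted p of 0.0719. The drug groups differed from each other by -0.09 with a 95% interval from -0.48 to 0.30. None of these adjusted values passed the threshold, although 10.4% of all genes reached an unadjusted p under 0.05 for sulindac and 14.6% for aspirin with clopidogrel.

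The vehicle mean of Rhbg joins very different mice, so each vehicle group was also used alone. Against the 4 vehicle mice with HCC, Rhbg fell by 1.17 (SE 0.239) with aspirin and clopidogrel, which passed the threshold with an adjusted p of 0.0217 where 0.918% of all genes did. The difference was -1.08 (SE 0.219) with sulindac, at an adjusted p of 0.0621 where 0.0468% of all genes passed. Against the 5 vehicle mice without HCC, the differences were -0.27 (adjusted p 0.667) and -0.18 (adjusted p 0.791), where 1.31% and 0.983% of all genes passed. Vehicle mice with HCC differed from chow mice by 0.78 (SE 0.248, adjusted p 0.231), where 0.0994% of all genes passed, and those without HCC by -0.11 (SE 0.234, adjusted p 0.991). These values set each drug group beside a vehicle group of a known outcome, and the labels give no tumour status for the treated mice, so outcome and drug cannot be told apart in them.

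For diet, the Rhbg difference between all CD-HFD vehicle and all chow mice was 0.29 (SE 0.206, adjusted p 0.890), and it moved when the 4 mice were left out. Vehicle mice Diet_Veh_low_794 and Diet_Veh_low_1819 had its lowest values in their group, at 4.65 and 4.69, and chow mouse Hlth_1807 its highest, at 6.12. The 4 mice were found from the brighter genes, Rhbg among them, so leaving them out narrows the groups by construction. The calls that follow are therefore no separate support for a difference. Without the 4 mice, Rhbg was higher by 0.88 (SE 0.179) in CD-HFD vehicle than in chow mice. Its adjusted p was 0.0037 in limma, where 5.61% of all genes were called. It fell by 0.87 (SE 0.128) with sulindac against vehicle, with an adjusted p of 0.00101, with 0.836% of genes called. With aspirin and clopidogrel it fell by 0.96 (SE 0.144) at an adjusted p of 0.00039, with 4.79% of genes called. Between vehicle mice with and without HCC it shrank to 0.47 (SE 0.198) at an adjusted p of 0.491, with 0.0819% of genes called. The F test then gave Rhbg an adjusted p of 0.000223, with 10.5% of genes called.

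Markers of other cells moved with some of these groups. The 5 Kupffer cell markers, all measured, were all lower in vehicle mice with HCC than without, with a median difference of -0.62, and all higher with sulindac and with aspirin and clopidogrel than in vehicle mice, with medians of 0.38 and 0.72. Their summed intensity was 2175 to 5722 with HCC, 3004 to 6020 without, 1146 to 8414 in chow mice, 3013 to 6476 with sulindac and 2608 to 6953 with aspirin and clopidogrel, so that the groups overlapped. The 7 stellate and fibroblast markers were all higher with HCC than without, with a median difference of 0.13, and summed to 3402 to 4704 with HCC, 2860 to 4323 without, 2075 to 7487 in chow mice, 2769 to 5350 with sulindac and 3077 to 3999 with aspirin and clopidogrel. None of these Kupffer or stellate markers passed the threshold in these comparisons in limma, where 0.0877% to 1.96% of all genes did.

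Of the 4 listed red blood cell markers 3 were measured, and they did not move one way. The globin gene Hba-a1 rose by 1.08 (SE 0.187, adjusted p 0.00469) with sulindac and by 1.21 (SE 0.215, adjusted p 0.00296) with aspirin and clopidogrel against vehicle. Alas2, the first enzyme of haem synthesis in red cells, fell by 1.11 (SE 0.278, adjusted p 0.0325) with aspirin and clopidogrel. The summed intensity of the 3 was 2424 to 5967 with HCC, 2422 to 4764 without, 1999 to 3777 in chow mice, 6145 to 8237 with sulindac and 6561 to 8376 with aspirin and clopidogrel. The 8 endothelial markers summed to 1283 to 2278 with HCC, 1615 to 2527 without, 1208 to 1944 in chow mice, 2045 to 2635 with sulindac and 2055 to 2864 with aspirin and clopidogrel. For sulindac against chow, 2 of the 8 passed in limma, where 2.98% of all genes did. They were Oit3 at 0.62 (adjusted p 0.0164) and Pecam1 at 0.56 (adjusted p 0.0318). For aspirin with clopidogrel against chow, Oit3 passed at 0.68 (adjusted p 0.0160), where 2.77% did. It also passed the F test (adjusted p 0.0266), where 3.97% did. None of the 8 passed against vehicle, where 0.199% of all genes did for sulindac and 1.96% for aspirin with clopidogrel. The part of these cell types in the Rhbg values was not tested.

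**Figure D2:**
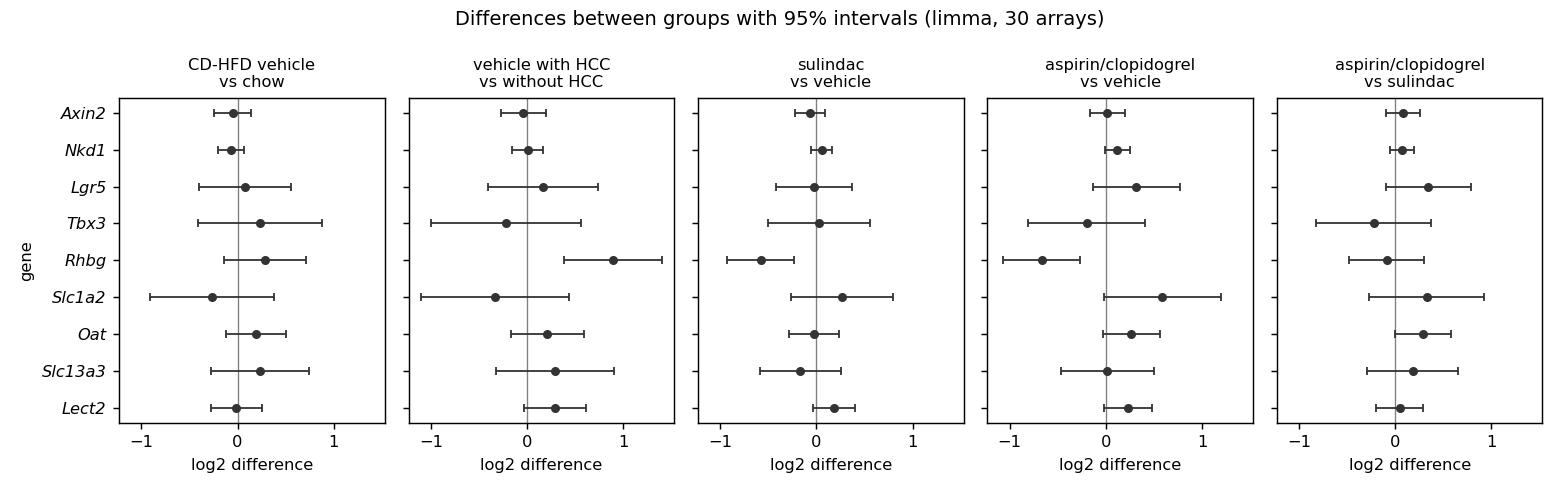
Difference in mean log2 intensity for each measured gene (rows) in 5 comparisons (panels), from limma on 30 arrays, with points for the estimate and bars for the 95% interval. Rhbg lies to the right of 0 for HCC, at 0.90, and to the left of 0 for both drug groups, at -0.58 and -0.67, while most other intervals include 0.

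Slc1a2, a glutamate transporter, had its lowest group mean in mice with HCC and, with all mice kept, its highest with aspirin and clopidogrel. It was at 6.87, 7.45, 7.62 and 7.64 in vehicle mice with HCC and at 6.77, 7.54, 8.00, 8.11 and 8.23 in vehicle mice without HCC. Chow mice had 8.16, 8.33, 8.39 and 8.51, apart from mouse Hlth_1798 at 5.83, the lowest of all 30 mice. The sulindac mice ranged from 7.17 to 8.48 with a median of 7.97, and the mice on aspirin with clopidogrel from 7.85 to 8.44 with a median of 8.20. All 6 mice on aspirin with clopidogrel thus lay above all 4 vehicle mice with HCC. Slc1a2 and Rhbg were 2 of 9 members without overlap between those groups, against 3.49% of all genes. Rhbg was the 1 of 9 between sulindac and vehicle with HCC, against 0.515% of all genes.

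The Slc1a2 difference between aspirin with clopidogrel and all vehicle mice was 0.59 (SE 0.296), with an adjusted p of 0.363. Against the vehicle mice with HCC alone it was 0.77 (SE 0.363), with an adjusted p of 0.369 in limma, where 0.918% of all genes passed. Mouse Hlth_1798 widened the chow group to an SD of 1.13 around a mean of 7.85 (n = 5). With all mice, Slc1a2 was at -0.26 (SE 0.314, adjusted p 0.949) in CD-HFD vehicle relative to chow. Without the 4 mice it was at -0.81 (SE 0.264), with an adjusted p of 0.0775, and at 0.64 with aspirin and clopidogrel relative to vehicle, with an adjusted p of 0.0871. Neither passed the threshold. Relative to chow, Slc1a2 with aspirin and clopidogrel was at 0.32 with all mice and turned to -0.16 without the 4 mice. The unadjusted p-values in limma were 0.350 and 0.550, so the highest mean with aspirin and clopidogrel did not hold without those mice. The other probe set of Slc1a2 was dim, with a mean of 4.33.

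Oat, the mitochondrial enzyme that turns ornithine toward glutamate, was read by a single probe set. It was at 11.00, 11.64, 11.85, 11.88 and 11.91 in chow mice, at 11.27, 11.49, 11.77, 12.07 and 12.16 in vehicle mice without HCC, and at 11.78, 11.84, 12.08 and 12.16 in those with HCC. The sulindac mice ranged from 11.26 to 12.35 with a median of 11.84, and the mice on aspirin with clopidogrel from 11.91 to 12.27 with a median of 12.16. The chow mice and the mice on aspirin with clopidogrel met at 11.91 without overlapping, 1 of 9 members between these groups against 2.01% of all genes. The difference from chow was 0.46 (SE 0.166), a ratio of 1.38, with an adjusted p of 0.150, and it was 0.24 with an adjusted p of 0.481 without the 4 mice, where 5.43% of all genes were called. Against sulindac it was 0.29 (SE 0.142) with an adjusted p of 0.464, where 10.8% of all genes had an unadjusted p under 0.05.

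Axin2, a scaffold of the complex that degrades beta-catenin and a common readout of Wnt activity, stayed within a narrow range. It was at 4.69, 4.75, 4.79, 4.84 and 5.32 in chow mice, with mouse Hlth_1807 standing apart at the top. Vehicle mice had 4.70, 4.77, 4.85, 4.93 and 4.99 without HCC and 4.63, 4.67, 4.79 and 5.15 with HCC. The drug groups overlapped these almost entirely, at 4.54 to 4.99 with a median of 4.77 for sulindac and 4.62 to 5.03 with a median of 4.86 for aspirin with clopidogrel. The 95% intervals of the difference ran from -0.24 to 0.14 for diet and from -0.27 to 0.19 for HCC. Against vehicle they ran from -0.22 to 0.09 for sulindac and from -0.17 to 0.20 for aspirin with clopidogrel. The other Axin2 probe set was dimmer, with a mean of 4.26.

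Nkd1, which restrains Wnt signalling through Dishevelled, was likewise compressed near the lower end of the array. It was at 4.53, 4.55, 4.64, 4.70 and 4.84 in chow mice, at 4.42, 4.53, 4.63, 4.66 and 4.67 in vehicle mice without HCC, and at 4.51, 4.57, 4.59 and 4.68 in those with HCC. The drug groups spanned 4.39 to 4.82 with sulindac and 4.52 to 4.81 with aspirin and clopidogrel, so that every group overlapped every other. The largest estimate against vehicle was 0.12, for aspirin with clopidogrel, with a 95% interval from -0.01 to 0.25. Its 4 probe sets had means between 4.38 and 4.64.

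Lgr5, the R-spondin receptor that marks pericentral hepatocytes, varied more between mice than between groups. It was at 5.29, 5.33, 5.41, 5.66 and 5.97 in chow mice. It ran from 4.85 to 6.56 in vehicle mice without HCC, whose other values were 5.22, 5.32 and 5.73, and stood at 4.98, 5.54, 5.74 and 6.54 in those with HCC. The sulindac mice ranged from 5.03 to 6.03 with a median of 5.60, and the mice on aspirin with clopidogrel from 5.61 to 6.42 with a median of 5.92. The mean was thus highest with aspirin and clopidogrel, at 5.93 ± 0.31 (SD, n = 6), but the difference from vehicle was 0.32 with a 95% interval from -0.13 to 0.77. The second Lgr5 probe set had a mean of 4.34 and an estimate of -0.02 for the same comparison.

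Tbx3, a T-box repressor that beta-catenin switches on in the liver, spread most widely in the mice with HCC. It was at 6.41, 6.65 and 6.90 in 3 of those mice and at 8.58 in mouse Diet_Veh_high_1831, the highest of all 30. It was at 7.05, 7.23, 7.38, 7.54 and 7.59 in vehicle mice without HCC and at 6.44, 6.80, 6.94, 7.03 and 7.93 in chow mice. The sulindac mice ranged from 6.29 to 7.88 with a median of 7.52, and the mice on aspirin with clopidogrel from 6.35 to 7.62 with a median of 7.09. The groups overlapped in every pair, and the SD with HCC was 0.98 (n = 4) against 0.22 (n = 5) without. These values come from the brightest of 3 Tbx3 probe sets. The second, with a mean of 6.44, gave -0.34 for HCC where the one read gave -0.22. The unadjusted p-values in limma were 0.217 and 0.564. The third was dim, with a mean of 4.44.

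Slc13a3, which carries dicarboxylates such as succinate into the cell, was at 5.25, 5.31, 5.58, 5.64 and 6.56 in chow mice. Vehicle mice had 5.12, 5.22, 6.04, 6.10 and 6.38 without HCC and 5.62, 5.76, 5.98 and 6.88 with HCC. The sulindac mice ranged from 5.29 to 6.09 with a median of 5.71, and the mice on aspirin with clopidogrel from 5.26 to 6.84 with a median of 5.77. Of the 4 mice, 3 sat at the ends of this gene too, mouse Hlth_1807 highest among chow mice and mice Diet_Veh_low_794 and Diet_Veh_low_1819 lowest among vehicle mice. The difference between CD-HFD vehicle and chow was 0.23 with all mice and 0.71 (SE 0.255, adjusted p 0.111) without the 4. Between vehicle mice with and without HCC it was 0.29 and turned to -0.11 without them, with unadjusted p-values of 0.346 and 0.689 in limma.

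Lect2, a secreted protein made by hepatocytes, was at 10.80, 10.93, 11.03, 11.13 and 11.45 in chow mice. It was at 10.31, 10.70, 10.94, 11.27 and 11.41 in vehicle mice without HCC and at 10.91, 11.18, 11.23 and 11.54 in those with HCC. The drug groups were tighter, at 11.08 to 11.43 with a median of 11.21 for sulindac and 11.08 to 11.48 with a median of 11.29 for aspirin with clopidogrel. Vehicle mice Diet_Veh_low_1819 and Diet_Veh_low_794 held the lowest values again. The differences from vehicle were 0.18 for sulindac and 0.23 for aspirin with clopidogrel, with 95% intervals from -0.04 to 0.40 and from -0.02 to 0.48. Without the 4 mice they were 0.02 (SE 0.0773) and 0.07 (SE 0.0873).

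As a list, the 9 genes had a median difference of 0.08 for diet, 0.16 for HCC, -0.02 for sulindac and 0.12 for aspirin with clopidogrel against vehicle. The median over all genes lay within 0.01 of 0 in each of these. With aspirin and clopidogrel, 7 of the 9 estimates were positive, against 50.8% of all genes, and Rhbg and Tbx3 were the members with negative ones. Without the 4 mice the medians were 0.06, 0.01, 0.02 and 0.07, and 6 of the 9 estimates were positive with aspirin and clopidogrel, with Slc13a3 now negative too.

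**Figure D3:**
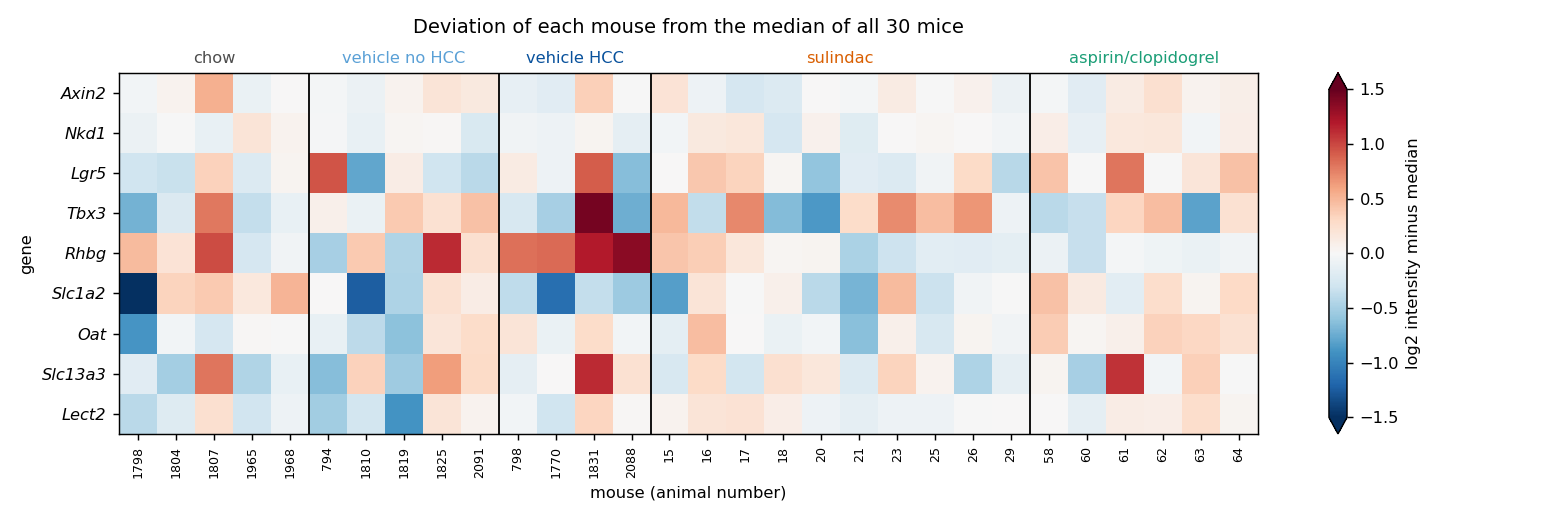
Deviation of each mouse (columns, marked with the number in its name, by group) from the median of all 30 mice for each measured gene (rows), in log2 intensity. Whole columns lean one way: mouse Diet_Veh_high_1831 of the vehicle group with HCC is high in most rows, and the Rhbg row is dark red across all 4 mice with HCC.

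Several of the genes varied together from mouse to mouse within the groups. Vehicle mouse Diet_Veh_high_1831 with HCC was the highest of its group in 8 of 9 members, all but Rhbg. Chow mouse Hlth_1807 was the highest of its group in 6, and vehicle mouse Diet_Veh_low_1825 without HCC in 5. At the other end, mouse Diet_AspClo_60 was the lowest of its group in 7 members, all but Slc1a2 and Tbx3. Mouse Hlth_1807 also had the highest summed intensities of stellate and fibroblast markers, 7487, and of cholangiocyte markers, 464, while its endothelial sum of 1208 was the lowest. Mouse Diet_Veh_high_1831 had the lowest endothelial sum of the vehicle mice, 1283. The part of these cell types in the shared variation was not tested.

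This shared variation was measured for all 36 pairs of members as the correlation of group-centred log2 values over the 30 mice, with p-values from a two-sided permutation of mice within groups adjusted over the 36 pairs. Pearson's r was positive in 31 pairs, and 8 pairs passed the threshold, each with a positive r. By Spearman's rank correlation, 5 of these 8 passed. With the 2 mice farthest from the median of the first gene left out of each pair, 4 passed, and 2 passed without the 4 mice. The points share tissue composition and array quality, which a correlation across mice cannot separate.

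The pair with the highest r was Oat and Slc1a2, enzyme and transporter on either side of glutamate. Over 30 mice, r was 0.77 by the permutation test (unadjusted p 0.00015, adjusted p 0.0054) and rho was 0.80 (unadjusted p 1e-05, the smallest that the permutations can give). It was 0.64 without the 2 farthest mice and 0.76 without the 4 mice, with adjusted permutation p-values of 0.0410 and 0.0205. Oat also varied with Lect2, with r of 0.62 (permutation, unadjusted p 0.00275, adjusted p 0.0165) and rho of 0.49, and with r of 0.63 and an adjusted permutation p of 0.0274 without the 4 mice. Without the 2 farthest mice the Oat and Lect2 pair had r of 0.61 with an adjusted permutation p of 0.0765.

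Rhbg, Lect2 and Slc13a3 formed a second set that varied together. Rhbg and Lect2 had r of 0.74 and rho of 0.67, Slc13a3 and Lect2 had r of 0.68 and rho of 0.63, and Rhbg and Slc13a3 had r of 0.62 and rho of 0.61. The unadjusted permutation p-values were 0.00079, 0.0007 and 0.00094, and each adjusted to 0.00846. All 3 held without the 2 farthest mice, at r of 0.75, 0.70 and 0.64 and an adjusted permutation p of 0.0269 each. They were weaker without the 4 mice, where r was 0.61, 0.51 and 0.29 with adjusted permutation p-values of 0.0578, 0.118 and 0.210. For comparison, r was -0.03 between Rhbg and Slc1a2 and -0.12 between Rhbg and Lgr5.

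The remaining 3 pairs held Axin2 or Tbx3. Axin2 and Tbx3 had r of 0.66 (permutation, unadjusted p 0.00181, adjusted p 0.0130) and rho of 0.59, and Axin2 and Slc13a3 had r of 0.57 (permutation, unadjusted p 0.00635, adjusted p 0.0297) and rho of 0.44. Without the 2 mice farthest from the Axin2 median, r was 0.41 and 0.26, with adjusted permutation p-values of 0.305 and 0.612. By rank, Axin2 and Tbx3 passed with an adjusted permutation p of 0.0185, and Axin2 and Slc13a3 did not, at 0.103. Without the 4 mice r was 0.61 and 0.46, with adjusted permutation p-values of 0.0946 and 0.18. Lgr5 and Tbx3 had r of 0.51 (permutation, unadjusted p 0.00661, adjusted p 0.0297) and rho of 0.42, and r of 0.48 without the 2 farthest mice, at an adjusted permutation p of 0.0765. Nkd1 was in none of the 8 pairs.

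**Figure D4:**
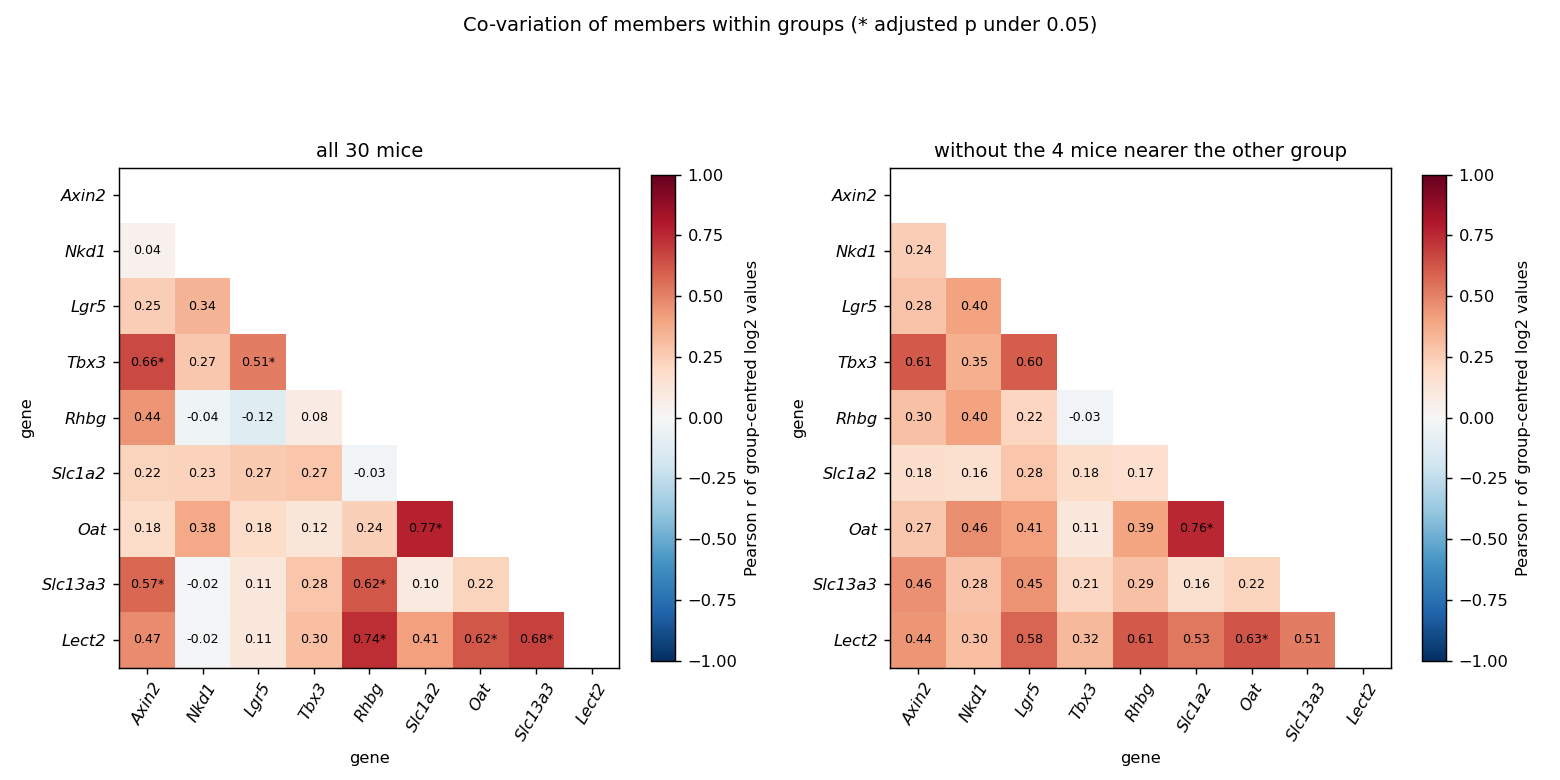
Pearson's r of group-centred log2 values for each pair of measured genes (rows and columns), over all 30 mice on the left and without the 4 mice nearer the opposite group on the right; a star marks an adjusted permutation p under 0.05. On the left 8 pairs are starred and on the right 2, with Oat and Slc1a2 at 0.77 and 0.76.

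Because Glul could not be read, the genes most like a member were sought for Rhbg, a choice made after its values were seen. Among 8542 genes at or above the median gene mean, those with the highest r to Rhbg over the 30 group-centred values were Idh2 at 0.85, Fkbp7 at 0.77, Phf11a at 0.77, Gbp10 at 0.76 and Atp6v1a at 0.75. Idh2 is the mitochondrial isocitrate dehydrogenase, Gbp10 an interferon-induced GTPase and Atp6v1a a subunit of the proton pump of acidic organelles. Without the 4 mice these values of r were 0.66, 0.51, 0.50, 0.60 and 0.44. They are the top of a search over all those genes and carry no test.

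The rest of the Wnt pathway was followed in lists of ligands and their release, receptors, inhibitors and intracellular parts. Of these, 8 of 8, 10 of 10, 13 of 14 and 16 of 17 genes were measured. The receptor Fzd8 was the only one of these 47 measured genes to pass the threshold in any of the 7 comparisons or in the F test. It passed against vehicle and against chow with aspirin and clopidogrel and in the F test, where 1.96%, 2.77% and 3.97% of all genes passed. A count of 1 in 47, or 2.13%, was near that background in each, so the values below describe 1 gene and not the pathway. It is a Frizzled receptor for Wnt ligands and was read by a single probe set.

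Fzd8 was at 5.89, 5.95, 6.04, 6.09 and 6.46 in chow mice. It was at 5.84, 5.97, 6.03, 6.25 and 6.29 in vehicle mice without HCC and at 6.02, 6.27, 6.43 and 6.48 in those with HCC. The sulindac mice ranged from 5.87 to 7.62 with a median of 6.51, and the mice on aspirin with clopidogrel from 6.41 to 7.64 with a median of 6.92. Untreated mice thus stayed at or below 6.48, and the drug groups reached above them while overlapping at their lower ends.

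Fzd8 rose by 0.83 (SE 0.208) with aspirin and clopidogrel against vehicle, with an adjusted p of 0.0345, and by 0.92 (SE 0.239) against chow, with an adjusted p of 0.0332. The F test gave an adjusted p of 0.0406. With sulindac the difference was 0.50 (SE 0.182, adjusted p 0.273) against vehicle and 0.59 (SE 0.216, adjusted p 0.150) against chow. The direct difference between the drug groups was 0.32 and did not reach an unadjusted p under 0.05. The calls were narrow. Against vehicle the call ended without vehicle mouse Diet_Veh_low_1810, Diet_Veh_low_1825, Diet_Veh_low_2091, Diet_Veh_low_1819 or Diet_Veh_high_798, or without mouse Diet_AspClo_61 or Diet_AspClo_58, where the highest adjusted p was 0.120. Against the vehicle mice with HCC alone the difference was 0.70 with an adjusted p of 0.204. Against chow the call ended without chow mouse Hlth_1798, Hlth_1804, Hlth_1965 or Hlth_1807 or without mouse Diet_AspClo_61 or Diet_AspClo_58, with an adjusted p of up to 0.0998, and without the 4 mice it was 0.0971. The F test call ended when any of 14 mice was left out, which were Hlth_1804, Hlth_1965, Hlth_1807, Diet_Veh_low_1810, Diet_Veh_low_1825, Diet_Veh_low_2091, Diet_Veh_low_1819, Diet_Veh_high_1770, sulindac mice Diet_Sulin_18, Diet_Sulin_20 and Diet_Sulin_23, and Diet_AspClo_61, Diet_AspClo_58 and Diet_AspClo_62. Its adjusted p reached 0.0897 without Diet_AspClo_61 and 0.0880 without the 4 mice. Against chow the adjusted p was 0.105 when only those 2 groups were fitted.

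**Figure D5:**
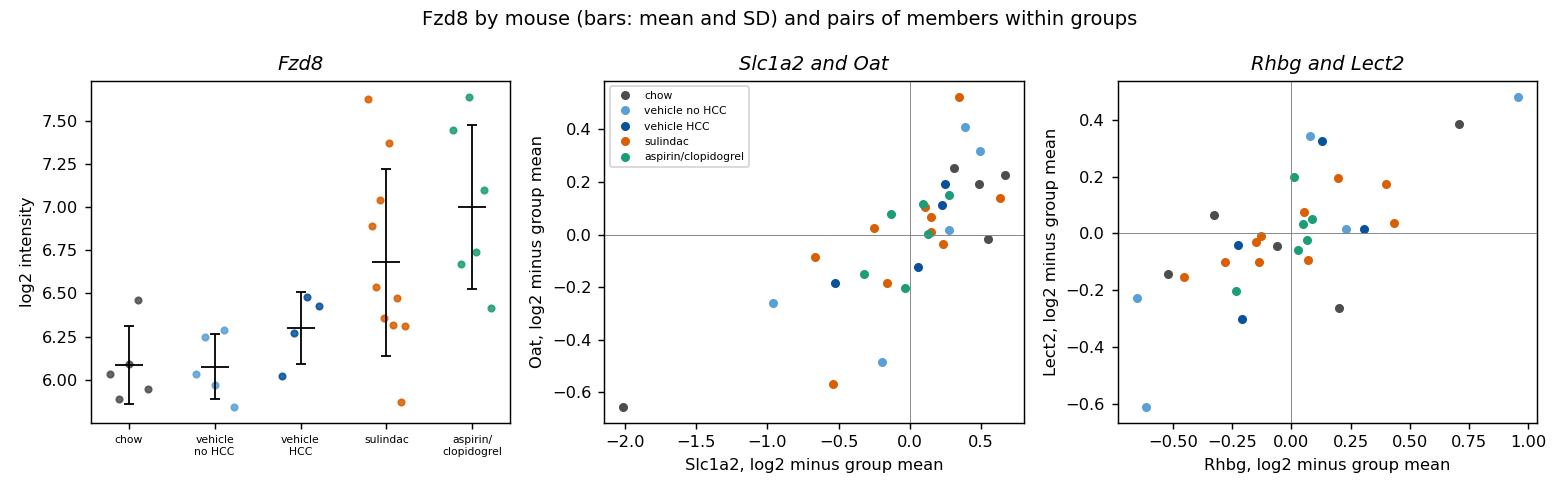
Left, log2 intensity of Fzd8 by group, 1 point per mouse, with bars for the mean and SD. Middle and right, group-centred log2 values of Slc1a2 against Oat and of Rhbg against Lect2, 1 point per mouse coloured by group; both clouds run from lower left to upper right, with r of 0.77 and 0.74, and chow mouse Hlth_1798 is the far left point in the middle panel.

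Other pathway genes are given as values, since none of them passed the threshold. The ligand Wnt5a had the smallest adjusted p of the ligand list, 0.0989, for aspirin with clopidogrel against chow, at a difference of -0.21 (SE 0.0671). Rspo3, the R-spondin of the central vein, differed by 0.31 (SE 0.122, adjusted p 0.196) between sulindac and chow. Fzd5, another Frizzled receptor, was at -0.51 (SE 0.183, adjusted p 0.364) in vehicle mice with HCC relative to those without. Znrf3, a ubiquitin ligase that removes Frizzled receptors and is itself a Wnt target, was at 0.48 (SE 0.173, adjusted p 0.151) for aspirin with clopidogrel against chow. Gsk3b, the kinase that marks beta-catenin for destruction, was at -0.37 (SE 0.109, adjusted p 0.0741) for aspirin with clopidogrel against vehicle.

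Other genes of pericentral hepatocytes, 16 of 18 measured, did not pass the threshold in any of the 8 tests. In these tests 0.0117% to 3.97% of all genes passed, so 0 of 16 was near the background. Cyp1a2, a cytochrome P450 of the pericentral zone, was at -0.73 (SE 0.2, adjusted p 0.292) in CD-HFD vehicle relative to chow. Without the 4 mice, which narrows the groups by construction, it was at -1.08 with an adjusted p of 0.00309, where 5.61% of all genes were called. Gstm3, a glutathione transferase, was at -1.47 (SE 0.46, adjusted p 0.0950) with aspirin and clopidogrel relative to vehicle. Lhpp, a phosphatase gene of the same zone, was at 0.92 (SE 0.287, adjusted p 0.0816) for aspirin with clopidogrel against chow. The list's median difference was 0.13 for aspirin with clopidogrel against vehicle and -0.02 for diet.

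Periportal genes, the counterpart at the portal vein, did not pass the threshold either, with 16 of 18 measured, again near that background. For aspirin with clopidogrel against chow, 10 of the 16 had an unadjusted p under 0.05, against 14.8% of all genes, and 8 of the 16 did for sulindac against chow, also against 14.8%. The smallest adjusted p was 0.0540, for Ctsc, a lysosomal protease, at a difference of 0.79 (SE 0.226) between aspirin with clopidogrel and chow. G6pc, the last step of glucose release, was at -0.68 (SE 0.195, adjusted p 0.144) for sulindac against vehicle. Cyp2f2, a periportal cytochrome P450, was at -0.37 (SE 0.114, adjusted p 0.0923) for aspirin with clopidogrel against vehicle, and Aldh1b1, an aldehyde dehydrogenase, at 0.87 (SE 0.274, adjusted p 0.0848) for sulindac against chow. The median periportal difference was 0.03 for diet, 0.03 for sulindac and 0.06 for aspirin with clopidogrel against vehicle, beside -0.02, 0.00 and 0.13 for the other pericentral genes.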

How the data were processed

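The authors deposited intensity per probe set, made by RMA with quantile normalization, per the series design text and, for RMA, the submitters' processing notes; the sources used here do not give its version. Quantile normalization gives every array the same distribution, so a shift of most genes at once would not be seen, and dim probe sets are compressed. Here log2 was taken, with no offset. Of 45141 probe sets, 28898 name 1 gene in the platform annotation, and 28689 of these were matched through Entrez to RefSeq. No gene was filtered out. Groups follow the labels; the design text lists 4 vehicle mice where the labels give 9.

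The model held 5 group means on 30 arrays with 25 residual degrees of freedom (limma 3.58.1, R 4.3.3). The fit was tested on simulated data. Intervals are limma's at 95% for each gene alone. The limma p-values set each difference of group means against the spread between mice within groups, which limma moderates across genes. The number of arrays limits the precision. Correlations used 100000 permutations. All members are described; differences are printed for members with an unadjusted p under 0.05 and where an interval is informative. Pathway genes are named where called, or else from the 2 smallest unadjusted p-values of a list and comparison. The members and lists were chosen with earlier results of these data known. Alternatives were another probe set rule, scaling, offset, filter, array weights, fewer groups in the fit and each mouse left out; the use of each vehicle group alone and without the 4 mice was added after seeing the data.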

Additional observations from a re-analysis of the deposited data

Results flagged for a closer look

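In groups of 4 to 10 mice, 3 of 45 combinations of gene and group held a mouse far from the others by Dixon's test at the 95% level, where chance gives about 1 in 20. Slc1a2 was at 5.83 in chow mouse Hlth_1798, while the nearest chow mouse was at 8.16, a gap of 0.867 of the whole range. Axin2 was at 5.32 in chow mouse Hlth_1807, with the nearest at 4.84 and a gap of 0.763 of the range. Rhbg was at 4.80 in mouse Diet_AspClo_60, with the nearest at 5.04 and a gap of 0.759 of a narrow range.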

How the results depend on the processing

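Counts of members past the threshold were 0 in 7 comparisons and 1 in the F test. For aspirin with clopidogrel against vehicle the count was 1, Rhbg in each case, with brighter genes only (adjusted p 0.0452), with array weights (0.0425), without the 4 mice (0.00039) and against vehicle with HCC alone (0.0217). For sulindac against vehicle it was 1, also Rhbg, with array weights (0.0472) and without the 4 mice, and for diet it was 1 without the 4 mice. Without the 4 mice 4.79%, 0.836% and 5.61% of all genes were called in these comparisons, against 1.96%, 0.199% and 0.0117% with all mice. Against vehicle with HCC alone the share was 0.918% for aspirin with clopidogrel. For the other settings the share is not given here, so a general rise in calls cannot be told apart from one of Rhbg. With each mouse left out in turn, the count ran from 0 to 1 in the F test, for aspirin with clopidogrel against vehicle and for HCC, and was 0 in the other comparisons. For aspirin with clopidogrel it became 1 without chow mouse Hlth_1807 (adjusted p 0.0453) or vehicle mouse Diet_Veh_low_794 (0.0225) or Diet_Veh_low_1819 (0.0263). The cause was not tested. Of 36 pairs, 8 passed with Pearson's r, 5 with Spearman's rank correlation, 4 without the 2 farthest mice and 2 without the 4 mice. None of the differences of Rhbg, Oat and Fzd8 followed through every setting and none of the 8 pairs changed direction. Among estimates of members that were not called, 10 of 63 changed sign without the 4 mice, 5 of 27 with vehicle without HCC alone and 2 of 27 with vehicle with HCC alone, and 0 of these had an unadjusted p under 0.05 in limma on either side. The Rhbg diet estimate was one of them, at 0.29 and at -0.11 with vehicle without HCC alone. Axin2 and Nkd1 lie below the median gene mean, which limits what their values can show. No paired analysis was possible because the animal numbers are not shared between groups.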
